A study of Homo sapiens with 3 samples.

Results

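The interferon response genes described here are 33 genes that cells switch on when they receive interferon or sense foreign nucleic acid. They were chosen by name from a fixed list of classical interferon-stimulated genes, their transcription factors and 1 chemokine, and not by their values on the arrays. All 33 names occur on the arrays, on 46 probes, and 28 of them have a probe outside columns 1 to 9 of the array, where signals could be compared on all 3 arrays. These 28 are read against 17224 named genes measured in the same columns. YB5 cells, a clone of the SW48 colon cancer line that carries 1 copy of a GFP reporter whose CMV promoter is silenced by methylation, were given 25 nM decitabine, 20 μM carboplatin or both drugs. The sample labels and a figure legend of the article give the carboplatin dose as 20 μM, while its Results text names 25 μM. The 4 doses fell on days 1 to 4, and RNA was taken on day 6. Each treatment was measured on 1 dual-colour Agilent array against YB5 cells given DMSO, with the treated RNA in Cy3 and the control RNA in Cy5 on all 3 arrays, and all values come from this 1 clone.

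Interferons bind receptors at the cell surface, and the receptors activate JAK kinases, which phosphorylate STAT proteins. STAT2 and IRF9 are parts of the factor that binds the interferon-stimulated response element (ISRE) in promoters, whereas STAT dimers bind the gamma-activated site (GAS). The products of the induced genes block viral entry, translation and replication, and several of them sense viral RNA and so can keep the response going. In cancer cells, inhibitors of DNA methylation such as decitabine are known for raising such genes after transcription of endogenous retroviral repeats. Carboplatin crosslinks DNA and is known for activating p53.

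With 1 array per treatment and no exchange of dyes, no test was possible and no p-value is given. A probe that favours 1 dye would show a change of the same sign on all 3 arrays. Such a shift cannot be told apart from an effect of treatment on a single array, and it cancels in differences between arrays. This limit applies to IFIT2 and IRF7 below, among others. Genes are called higher or lower where treated and control cells differed at least 1.5-fold, which is 0.585 on the log2 scale. The spread of repeated spots within an array, pooled over 264 probes spotted 10 times, was an SD of 0.0786, 0.0736 and 0.0757 log2 units on the decitabine-labelled, carboplatin-labelled and combination arrays. This SD covers the spots of 1 hybridization and leaves out the spread between cultures, which was not measured. The 3 control channels offer a second yardstick, since between any pair of arrays 0.598% to 0.83% of genes differed at least 1.5-fold in control level. Whether the control channels hold the same RNA is not stated, and all of them are in Cy5. This share may therefore leave out the spread between cultures, and it leaves out differences between dyes. In columns 1 to 9 of the decitabine-labelled array, the control signal was low relative to the other arrays (median log2 difference from the rest of the array -0.98), and the genes there had a median change of 0.75. These columns were left out. The labels of the single-drug arrays are also uncertain. Of 16 targets of p53, 15 were measured, and 15 were called higher on the decitabine-labelled array (median log2 change 2.24) against 9 on the carboplatin-labelled array (0.65) and 15 on the combination array (2.06). Of the genes that the article lists as lowered by carboplatin, a list drawn from these arrays and so not independent of them, 39 of 53 were lower on the decitabine-labelled array and 4 on the carboplatin-labelled array. No array was reassigned, and each is named by its label (decitabine-labelled, carboplatin-labelled, and combination for the label of both drugs), so that a drug is attached to a value only as far as the label holds. Where 3 values stand together without a name, they follow that order.

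To show what the members share apart from their name, promoter sequences of RefSeq (GRCh38.p14) were searched over the 250 bases before the start of the gene. Of the 33 members, 25 matched an entry, DDX58 under its current symbol RIGI. IFIT2, OAS2, OASL, MX2, IFITM2, USP18, IRF7 and TRIM22 were not matched. The ISRE core was searched as GAAANNGAAA on both strands and occurred in 16 of these 25 promoters (64.0%) and in 3.02% of 35116 promoters of all genes. The GAS core was searched as TTCNNNGAA, which reads the same on both strands, and occurred in 7 of 25 (28.0%) and in 6.57% of all. The matches are letters in a window and not shown to be bound. The members' promoters were also poor in CpG, the dinucleotide that DNA methyltransferases modify, with a median of 6 CpG against 11 over all promoters. Printed below from 5′ to 3′ on the strand of the gene are IFI27, IFITM1 and IFIT1, which were called changed, ISG15, a ubiquitin-like protein that is among the best-known markers of the response, and IRF1, a transcription factor whose promoter holds a GAS core and no ISRE core. Capitals mark the ISRE core, and in IRF1 the GAS core. IFI27 lies at chr14:94110486-94110735 on the plus strand, IFITM1 at chr11:313790-314039 on the plus strand, IFIT1 at chr10:89392373-89392622 on the plus strand, ISG15 at chr1:1013247-1013496 on the plus strand and IRF1 at chr5:132490774-132491023 on the minus strand.
IFI27: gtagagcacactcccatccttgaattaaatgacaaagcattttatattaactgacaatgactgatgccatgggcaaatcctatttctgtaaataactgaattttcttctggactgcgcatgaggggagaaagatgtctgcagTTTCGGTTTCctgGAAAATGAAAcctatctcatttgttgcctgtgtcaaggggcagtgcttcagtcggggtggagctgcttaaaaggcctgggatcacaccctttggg
IFITM1: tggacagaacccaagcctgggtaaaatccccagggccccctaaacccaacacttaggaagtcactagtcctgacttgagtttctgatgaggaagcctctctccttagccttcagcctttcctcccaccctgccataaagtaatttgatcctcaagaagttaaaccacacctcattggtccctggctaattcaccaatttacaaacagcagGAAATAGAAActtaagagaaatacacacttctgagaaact
IFIT1: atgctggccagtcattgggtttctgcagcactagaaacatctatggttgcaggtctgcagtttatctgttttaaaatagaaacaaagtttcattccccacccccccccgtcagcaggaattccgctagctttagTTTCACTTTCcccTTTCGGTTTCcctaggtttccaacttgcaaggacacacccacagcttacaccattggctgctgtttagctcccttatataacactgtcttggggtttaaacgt
ISG15: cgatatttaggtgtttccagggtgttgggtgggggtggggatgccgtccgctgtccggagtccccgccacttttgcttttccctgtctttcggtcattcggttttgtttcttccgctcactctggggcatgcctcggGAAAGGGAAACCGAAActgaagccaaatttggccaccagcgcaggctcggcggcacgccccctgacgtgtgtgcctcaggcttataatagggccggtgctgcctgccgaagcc
IRF1: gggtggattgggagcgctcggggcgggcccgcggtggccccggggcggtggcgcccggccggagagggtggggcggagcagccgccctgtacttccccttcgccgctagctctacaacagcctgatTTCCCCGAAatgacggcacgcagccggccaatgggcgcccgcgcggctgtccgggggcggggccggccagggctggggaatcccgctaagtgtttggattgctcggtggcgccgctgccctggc
IFI27, IFIT1 and ISG15 each hold 2 ISRE cores, those of ISG15 overlapping, and IFITM1 holds 1, which begins 40 bases before the start of the gene. The IFITM1 window has 0 CpG, that of IFI27 has 3 and that of IFIT1 has 4, while those of ISG15 and IRF1 have 17 and 29. The medians of members with and without the ISRE core are given as a description. On the decitabine-labelled array the 13 measured members with an ISRE core had a median log2 change of -0.20 and the 7 without it -0.08. On the carboplatin-labelled array the medians were 0.00 and -0.13, and on the combination array they were -0.08 and -0.09.

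As a group, the 28 interferon response genes had medians near 0. Their median log2 change was -0.10 on the decitabine-labelled array, -0.01 on the carboplatin-labelled array and -0.08 on the combination array, where the medians over all genes lay within 0.01 of 0. Over the 22, 21 and 23 members with a channel well above background on the array in question, the medians were lower, at -0.201, -0.0888 and -0.187. A few members stood apart on their brightest probes, with IFI27 and IFITM1 higher on the carboplatin-labelled array and lower on the decitabine-labelled array, IRF7 and TRIM22 highest on the combination array, and IFIT1 and IFIT2 lower there. On the decitabine-labelled array 1 of 28 members was called higher and 3 were called lower, beside 5.11% and 4.92% of all genes. On the carboplatin-labelled array 3 were higher and 1 was lower, beside 2.73% and 1.43%. On the combination array 3 were higher and 2 lower, beside 7.37% and 5.84%. With 28 members, 1 gene is 3.57% of the group, and of these counts the one furthest from its background is that of 3 genes (10.7%) higher on the carboplatin-labelled array. Of the 28, 19 were well above background in both channels of all 3 arrays, 4 in some channels, and 5 in none. The calls depend on the intensity normalization, because without loess correction 10 members were lower on the decitabine-labelled array, 5 on the carboplatin-labelled array and 8 on the combination array, while 3, 5 and 2 were higher. That setting also moved the share of all genes called lower to 19.5%, 17.0% and 21.3%, beside 35.7%, 17.9% and 28.6% of members. In cells measured in bulk, more RNA in each cell and more cells that express a gene cannot be told apart.

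**Figure D1:**
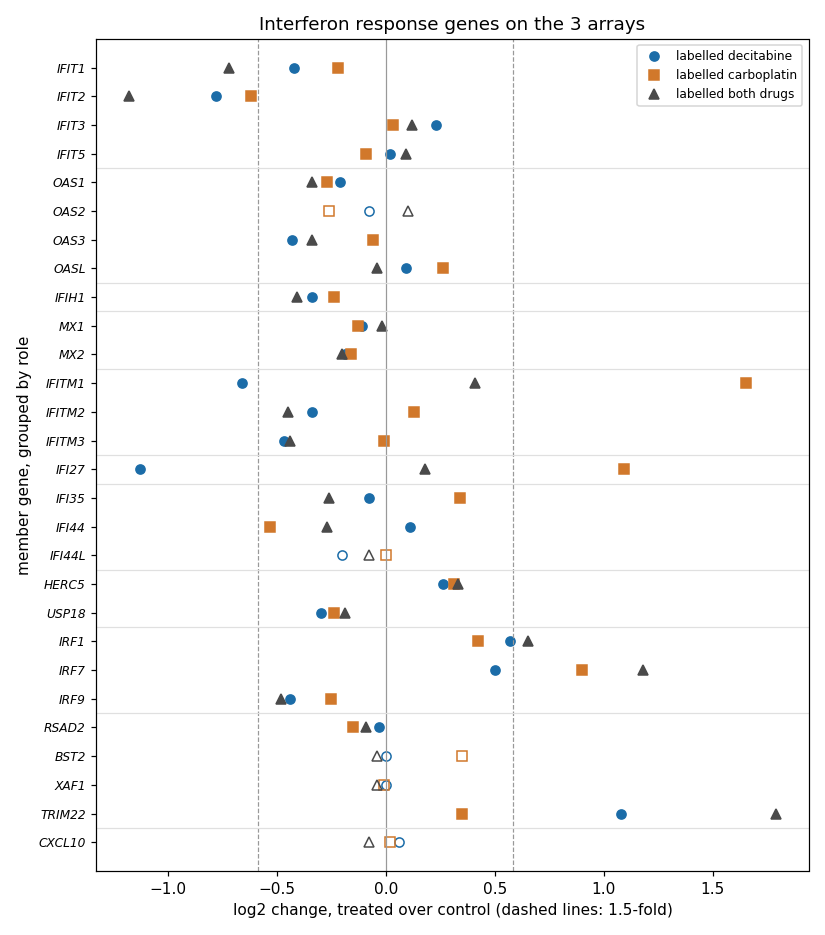
Log2 change of treated over control cells for the 28 members with a probe outside columns 1 to 9, grouped by role, 1 point per array. Open symbols mark genes not well above background in any channel of any array, dashed lines mark 1.5-fold. Most members lie between the dashed lines on all 3 arrays, and IFI27 and IFITM1 lie beyond both of them on different arrays.

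IFI27, a small membrane protein of the type I response that serves as a marker of interferon exposure in blood, is the only member whose probe is spotted more than once on an array. This probe lies at chr14:94582929-94582988 (GRCh37) and has 10 spots on each array, 8 of them outside columns 1 to 9. The mean signal of treated cells was 120 on the decitabine-labelled array, 569 on the carboplatin-labelled array and 290 on the combination array, while the control signals were 510, 570 and 464. The treated cells therefore differed between arrays and the control cells hardly did. Signals of the Cy3 channel were lower than those of the Cy5 channel over all genes (median 163 against 321 on the decitabine-labelled array), which is why equal signals on the carboplatin-labelled array correspond to a higher level in treated cells after normalization. The log2 change was -1.13 ± 0.059 (SD, 8 spots) on the decitabine-labelled array, 1.09 ± 0.062 on the carboplatin-labelled array and 0.18 ± 0.084 on the combination array. The 8 spots ranged from -1.22 to -1.05, from 0.97 to 1.16 and from 0.10 to 0.35, and the spots of the 3 arrays did not overlap. The second IFI27 probe, 38 bases further along, gave -0.41, 0.56 and 0.09, the same order at smaller size. Its treated channel was not well above background on the decitabine-labelled array.

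**Figure D2:**
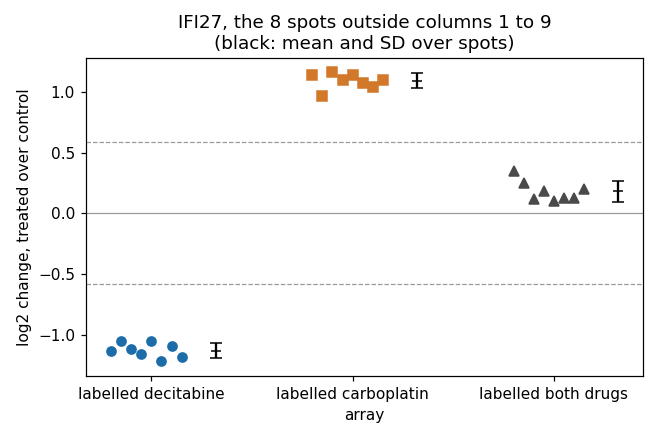
Log2 change of IFI27 in each of the 8 spots outside columns 1 to 9, by array, with the mean and SD over spots in black and 1.5-fold as dashed lines. The spots of the decitabine-labelled array lie between -1.22 and -1.05, those of the carboplatin-labelled array between 0.97 and 1.16 and those of the combination array between 0.10 and 0.35.

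IFITM1, which holds up viruses as they fuse with cell membranes, followed the same order. Its treated signal was 405 on the decitabine-labelled array, 3816 on the carboplatin-labelled array and 927 on the combination array. The control signal was 1364, 2866 and 1371. The treated cells of the carboplatin-labelled array were thus the highest of all, and the control cells of that array were 2.1-fold above those of the decitabine-labelled array although both were given DMSO. After scaling between arrays the control level was 2.11-fold higher than on the decitabine-labelled array and 1.84-fold higher than on the combination array. IFITM1 and HERC5 were the members whose control levels differed at least 1.5-fold between arrays. The part of the control channel in the IFITM1 result was not tested. The log2 change was -0.66, 1.65 and 0.41. Set against the mean control level of the 3 arrays, an alternative added after seeing the data, it was -1.08, 2.30 and 0.19.

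IFITM2 and IFITM3, neighbours of IFITM1 on chromosome 11 with related sequences that may bind each other's probes, showed little of this. IFITM2 changed by -0.34, 0.13 and -0.45 and IFITM3 by -0.47, -0.01 and -0.44. Both were thus highest relative to control on the carboplatin-labelled array, and with the main normalization neither was called on any array. With median centring in place of loess, IFITM2 changed by -0.84, -0.41 and -0.99 and IFITM3 by -1.04, -0.65 and -1.09. IFITM3 was then past 1.5-fold on every array, and in the authors' table it was -0.64 on the decitabine-labelled array. Their control levels were close on the 3 arrays, with a range of 0.04 log2 units for IFITM2 and 0.01 for IFITM3.

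Among the transcription factors, IRF7, which amplifies the transcription of type I interferon genes, was higher than control on all 3 arrays. Treated signals were 9867, 11819 and 15716, and control signals were 16341, 15603 and 15022. The treated signal was highest on the combination array, and the control signals differed little. The log2 change was 0.50, 0.90 and 1.18, so that IRF7 was called on the carboplatin-labelled and combination arrays. A second, dimmer probe gave 0.42, 0.98 and 0.83, which puts the carboplatin-labelled array first. The brighter probe lies in an intensity range where the loess correction is large, and with median centring in its place the changes were 0.02, 0.39 and 0.64. IRF1, an activator induced by interferon gamma through its GAS element, had treated signals of 254, 235 and 253 and control signals of 346, 360 and 286. The changes were 0.57, 0.42 and 0.65, and only that on the combination array was past 1.5-fold. It missed that threshold under 3 alternatives, with 0.46 after median centring, 0.57 in the authors' table and 0.56 against the mean control level. IRF9, the DNA-binding part of the ISRE factor, changed by -0.44, -0.25 and -0.48 and was not called.

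The IFIT proteins bind viral RNA and hinder its translation. IFIT2 was lower than control on every array, with treated signals of 253, 275 and 189 and control signals of 942, 923 and 776. The log2 change was -0.78, -0.62 and -1.18, past 1.5-fold on each array. A dye preference of this probe was not tested. Its second probe, 1784 bases nearer to the 5′ end on the plus strand of chromosome 10 and dimmer (control signals of 145, 141 and 138), gave -0.25, -0.03 and -0.26, and the mean of both probes was past 1.5-fold on the combination array alone. IFIT1 had treated signals of 735, 803 and 599 and control signals of 2185, 2151 and 1932. Its changes were -0.42, -0.22 and -0.72, called on the combination array. IFIT3 (0.23, 0.03 and 0.12) and IFIT5 (0.02, -0.09 and 0.09) were not called on any array. The members of this family lie side by side on chromosome 10. On their brightest probes, IFIT1 and IFIT2 were below control on every array and in the same order of arrays. IFIT3 and IFIT5 stayed between -0.09 and 0.23.

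TRIM22, a ubiquitin ligase that restricts retroviruses and is also a target of p53, was the member furthest above control on the combination array. Treated signals were 102, 68.4 and 180, and control signals were 83.9, 85 and 85.1. The control cells were not well above background on any array, and the treated cells were on the decitabine-labelled and combination arrays. On this probe and with the main normalization, the treated level was at least 2.11-fold the control level on the decitabine-labelled array and at least 3.01-fold on the combination array, the bound being set by the lowest control level well above background or the probe's own level where that is higher. The first of these bounds equals the fitted change, and it does not hold over other settings, in which the log2 change on the decitabine-labelled array ran from 0.87 with both probes averaged to 3.99 with the processed signals, which also gave 5.23 on the combination array. The fitted changes were 1.08, 0.35 and 1.79 log2 units. A second probe, adjacent to the first, gave 0.65, 0.19 and 1.68. The targets of p53 above were likewise higher on these arrays, and their part in the TRIM22 result was not tested.

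**Figure D3:**
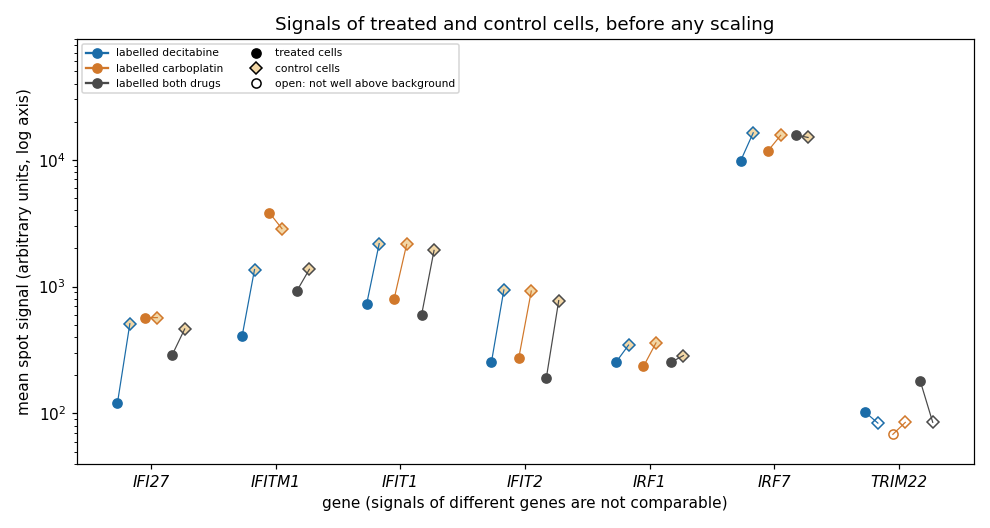
Mean spot signals of treated cells (circles) and control cells (diamonds) on a log axis for the 7 members called changed on at least 1 array, before any scaling. Open symbols are not well above background, and Cy3 (treated) signals run lower than Cy5 (control) signals over the whole array. The treated signal of IFI27 runs from 120 to 569 while its control signal stays between 464 and 570, and both signals of IFITM1 are highest on the carboplatin-labelled array.

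With the main normalization, the remaining members did not reach 1.5-fold on any array. The OAS enzymes are activated by double-stranded RNA, and OAS1 changed by -0.21, -0.27 and -0.34. OAS3 changed by -0.43, -0.06 and -0.34. OASL, at 0.09, 0.26 and -0.04, was near background. The RNA sensor IFIH1 (MDA5) changed by -0.34, -0.24 and -0.41. MX1, a GTPase that traps viral nucleocapsids, stayed between -0.13 and -0.02 with control signals of 3321 to 3850, and MX2 between -0.20 and -0.16. MX1 RNA was well above background in control and treated cells of every array and differed between them by less than 1.5-fold. IFI35 changed by -0.08, 0.34 and -0.26 and IFI44 by 0.11, -0.53 and -0.27. USP18, which removes ISG15 from proteins and damps receptor signalling, changed by -0.30, -0.24 and -0.19 on its brighter probe and by 0.31, 0.31 and 0.24 on the other, 361 bases away. The probes of USP18 thus differed in sign on every array. A near-identical copy of the gene may share their signal, and neither this nor a dye preference of either probe was tested. HERC5, the main ligase for ISG15, was well above background on the combination array alone, where treated and control signals were both raised (110 and 135, against 66.1 and 77.7 on the decitabine-labelled array), so that its change was 0.26, 0.31 and 0.33. On the combination array HERC5 passed 1.5-fold at 0.82 by the authors' values, 0.81 against the mean control level and 0.76 with processed signals. At background signal, processed signals gave 1.74 on the decitabine-labelled and 2.02 on the carboplatin-labelled array, and median centring gave 0.64 and 0.69. RSAD2 (viperin), which blocks viral replication by making a chain-terminating nucleotide, was near background and changed by -0.03, -0.15 and -0.09. OAS2, IFI44L, XAF1, CXCL10 and the BST2 probe outside columns 1 to 9 were not well above background in any channel. CXCL10, a chemokine that attracts T cells, had treated signals of 60.4, 56.0 and 56.0 and control signals of 74.8, 75.6 and 77.2.

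For 5 members, DDX58, IFI6, ISG15, ISG20 and STAT2, every probe lies in columns 1 to 9, and BST2 has its RefSeq probe there. Their values come from a fit on all columns and were kept out of the counts above. On the decitabine-labelled array the treated signals of these 5 resembled those of the other arrays and their control signals were lower. ISG15 had treated signals of 3983, 3771 and 5407 and control signals of 1702, 4858 and 4479, which gives log2 changes of 2.40, 0.90 and 1.31. With the mean control level of the other arrays in place of its own, an alternative added after seeing the data, the change on the decitabine-labelled array was 0.88. ISG15 was thus past 1.5-fold on all 3 arrays, with 1 spot on each, except after median centring, where it was 0.41 on the carboplatin-labelled array. The viral RNA sensor DDX58 (RIG-I) changed by 0.78, -0.32 and -0.30, and by -0.38 in place of 0.78 with the control level of the other arrays. IFI6, a mitochondrial protein that protects cells from apoptosis, changed by 1.23, -0.17 and 0.02, and by -0.04 in place of 1.23. ISG20, an exonuclease, changed by 0.86, -0.04 and -0.42, and by -0.47 in place of 0.86. STAT2 changed by 0.85, -0.01 and 0.09, and by 0.28 in place of 0.85. BST2 (tetherin), which holds budding viruses at the cell surface, had treated signals of 64.2, 111 and 97.9 against control signals of 74.7, 88.0 and 86.1, with control cells below background. The fitted changes of this BST2 probe were 0.06, 0.94 and 0.51. On the carboplatin-labelled array the bound was at least 1.92-fold, which equals the fitted change because the probe's own control level set it. It rests on 1 spot. The BST2 probe outside columns 1 to 9 gave 0.00, 0.35 and -0.04 at background signal.

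The combination array was next set against each single-drug array as the difference of log2 changes, since the study asked what carboplatin adds to decitabine. Which difference answers that question depends on the labels of the single-drug arrays, which are uncertain as described above. Against the decitabine-labelled array, 4 of 28 members were higher by at least 1.5-fold with both drugs, beside 1.81% of all genes, and 0 were lower, beside 0.325%. These were IFI27 (1.31), IFITM1 (1.07), TRIM22 (0.70) and IRF7 (0.67). Against the carboplatin-labelled array, TRIM22 alone was higher (1.44), beside 4.12% of all genes. As TRIM22 was not well above background in either channel of the carboplatin-labelled array, the size of this difference is not measured, and with genes above background alone 0 members were higher. There 4 were lower, beside 3.39%, namely IFITM1 (-1.23), IFI27 (-0.91), IFI35 (-0.60) and IFITM2 (-0.59). On the brightest probe of each gene, IFI27 and IFITM1 with both drugs thus lay between their values on the single-drug arrays. IRF7, IFIT1 and IFIT2 lay beyond both. For IFIT2 the distance was -0.41 from the decitabine-labelled array and -0.56 from the carboplatin-labelled array, and for IRF7 it was 0.67 and 0.27. On the second IRF7 probe, the value with both drugs (0.83) lay between those of the single-drug arrays (0.42 and 0.98). The second IFIT2 probe gave -0.26 with both drugs, -0.25 on the decitabine-labelled array and -0.03 on the carboplatin-labelled array. With processed signals, IFIT1 was -0.84 with both drugs and -1.04 on the decitabine-labelled array. The difference between IFIT1 with both drugs and on the carboplatin-labelled array was -0.50, under 1.5-fold. The arrays share a control treatment and possibly the control RNA, so these differences are not independent of each other.

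**Figure D4:**
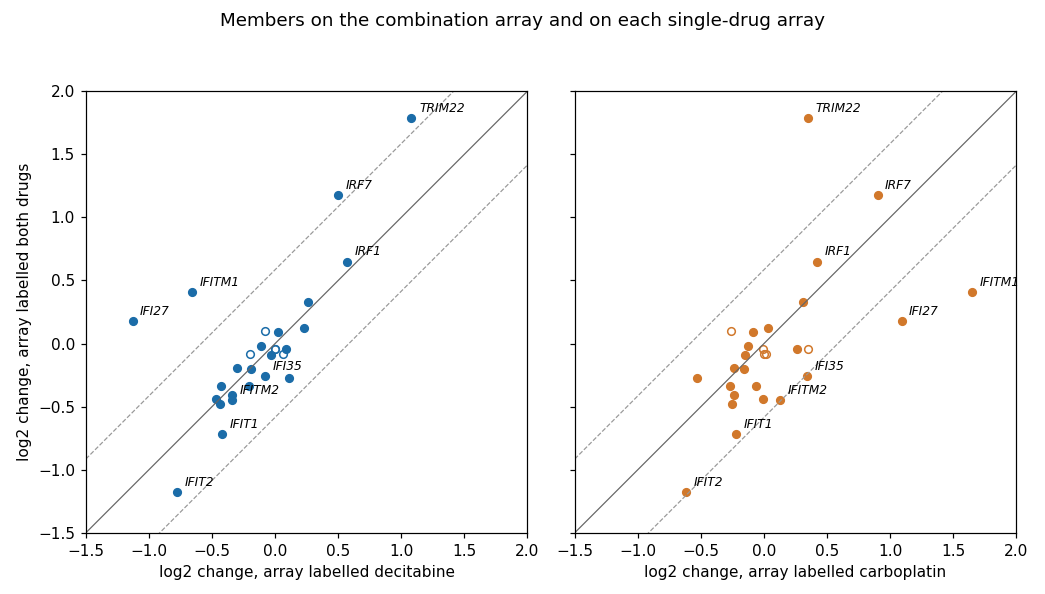
Log2 change on the combination array (vertical axis) against that on the decitabine-labelled array (left) and on the carboplatin-labelled array (right), 1 point per member. The solid line marks equality and the dashed lines a 1.5-fold difference, and open symbols mark genes not well above background in any channel. IFI27 and IFITM1 lie above the dashed band on the left and below it on the right, while TRIM22 lies above it in both panels.

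The rest of the pathway was read from lists of ligands, receptors, transducers, sensors, enzymes, inhibitors and further interferon-induced genes, 94 genes outside the members, of which 82 were measured. On the decitabine-labelled array 2 were called higher and 4 lower, on the carboplatin-labelled array 1 and 1, and on the combination array 4 and 7. These are 2.44% and 4.88%, 1.22% and 1.22%, and 4.88% and 8.54% of the 82 genes, all but the last below the shares of all genes given above. The median changes of these 82 genes were 0.01, -0.01 and -0.01. No interferon gene was called, as 0 of 16 measured ligands passed 1.5-fold on any array, and 13 of them were not well above background in either channel. IFNB1, the first interferon made by most infected cells, changed by 0.02, 0.01 and -0.15 at background signal. Of 6 receptor chains, IL28RA, which binds interferon lambda, changed by -0.85, -0.44 and -0.99, and IFNGR1, which binds interferon gamma, by -0.12, -0.60 and -0.01. IFNAR1 and IFNAR2, the receptor of type I interferon, were not called. STAT3, which answers to interleukin 6 more than to interferon, changed by 0.60, 0.15 and 0.55.

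Among sensors and adaptors, TICAM1, the adaptor of TLR3, changed by 0.55, 0.50 and 0.59. In the ISG15 pathway, UBA7, the enzyme that activates ISG15, changed by -0.47, 0.74 and -0.03, the same order of arrays as IFI27 and IFITM1. That order was not confined to the pathway, since the cell type markers VIL1 (-0.87, 1.86 and 0.20) and COL1A1 (-0.38, 0.29 and -0.29) had it too. HERC6 changed by -0.86, -0.52 and -0.97. None of 4 measured inhibitors was called, SOCS1 being the furthest from 0 at 0.45 on the decitabine-labelled array. Of 28 further interferon-induced genes, SP100, a component of nuclear bodies, changed by -0.96, -0.19 and -0.89 and SAMD9, which restricts poxviruses, by -0.74, -0.43 and -1.02. PLSCR1 (-0.58, -0.53 and -0.93) and DDX60 (-0.49, -0.50 and -0.89) were lowest on the combination array, as IFIT1 and IFIT2 were. PARP14 (0.61, 0.42 and 0.86), the lysosomal reductase IFI30 (0.34, 0.03 and 0.65) and LGALS3BP (0.28, 0.40 and 0.61) were called higher on the combination array.

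Markers of the labelled cell type were present. Of 8 measured markers of colon epithelium, 6 were well above background in both channels of all arrays. Of these 8, 6 were called on at least 1 array. VIL1 changed by -0.87, 1.86 and 0.20 and KRT19 by 0.00, 0.71 and 0.85. KRT18 (0.83, 0.50 and 1.15) and KRT8 (0.73, 0.55 and 0.79) were above control on all arrays. CDH1 changed by -0.88, 0.02 and -0.86 and CDH17 by -0.67, -0.48 and -0.87. Of 6 markers of blood cells, PTPRC and HBB were not well above background on any array, and the marker furthest from control was CD68 at 1.01, 0.40 and 1.53. Of 3 markers of endothelium and 5 of fibroblasts, PECAM1, CDH5, COL1A2 and PDGFRB were not well above background in any channel. COL1A1 (-0.38, 0.29 and -0.29) was well above background in both channels of all arrays. VWF (-0.31, -0.09 and -0.14) was too, except in part of its treated spots on the decitabine-labelled array. Neither COL1A1 nor VWF was called. LUM (0.16, 0.59 and 0.26) and DCN (-0.11, 0.58 and -0.08) were well above background in the treated cells of the carboplatin-labelled array alone, the array on which IFI27 and IFITM1 were highest, and LUM was called there. The part of these markers in the IFI27 and IFITM1 results was not tested.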

How the data were processed

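Total RNA of 3 treatments was read on 3 arrays of 1 slide. The deposited scanner files give spot intensity, made by the authors with Feature Extraction 9.5.3.1 by the file header (8.5.1.1 by the submitters' processing notes), and positions on GRCh37. The deposited series table gives log2 ratios, normalized by the authors with limma in R 3.0.2, and it was read as treated over control because it correlated positively with the scanner values (r of 0.908 to 0.959). The log10 ratios of the deposited scanner files, made by the same software, served to check the direction of change. Here, R 4.3.3 and limma 3.58.1 were used. Spots in columns 1 to 9, control spots and outlier spots (114, 103 and 83) were left out, normexp (offset 50) corrected the background, loess normalized each array, and levels of single channels were scaled by Aquantile. Spots of a probe were averaged and a gene took its brightest probe. Genes were kept where the RefSeq table names them. Steps were tested on simulated data. The number of arrays limits the precision. Members passing 1.5-fold with a channel well above background were described in full. The members, gene lists and comparisons were chosen with earlier results of these data known. No member spot was saturated (0 on each array). The alternatives are those given in the closing section. Some genes of the pathway lists are counted but not reported by name here.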

Additional observations from a re-analysis of the deposited data

Results flagged for a closer look

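IFITM1 and IFI27 were called in opposite directions on the single-drug arrays, at log2 changes of 1.65 and 1.09 on the carboplatin-labelled array against -0.66 and -1.13 on the decitabine-labelled array. The difference was not tested, since each treatment has 1 array.

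Signals also appeared in columns 1 to 9, which the comparisons do not use. There, ISG15 had log2 changes of 0.90 on the carboplatin-labelled array and 1.31 on the combination array, and the RefSeq probe of BST2 had 0.94 on the carboplatin-labelled array.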

How the results depend on the processing

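All 13 member changes past 1.5-fold kept their sign under the 8 alternatives, and 11 to 13 stayed past 1.5-fold under each. These are not 8 independent checks. Keeping genes above background alone leaves the values of called members as they are, and averaging probes changes only genes with more than 1 probe. Including columns 1 to 9 refits mostly the same spots for these members. Counts and medians below follow the order decitabine, carboplatin, both drugs. With median centring in place of loess, 10, 5 and 8 members were lower (3, 1 and 2 with loess), 3 and 5 were higher on the decitabine-labelled and carboplatin-labelled arrays, and the median on the decitabine-labelled array was -0.23. That setting moved the median of all genes to -0.12, -0.13 and -0.10, and the share of higher among called genes from 51.0%, 65.6% and 55.8% to 21.8%, 21.6% and 16.6% (65.6%, 55.9% and 53.7% with processed signals, 38.7%, 45.5% and 44.0% by the authors' values). With the processed signals, 5, 6 and 6 members were higher (17.9%, 21.4% and 21.4%, beside 22.5%, 7.62% and 13.0% of all genes), 5 and 4 were lower on the decitabine-labelled and carboplatin-labelled arrays (17.9% and 14.3%, beside 11.8% and 6.01%), the median on the decitabine-labelled array was -0.22, and 3 members were above the carboplatin-labelled array and 4 below the decitabine-labelled array with both drugs. By the values of the authors, 5 members were lower on the decitabine-labelled array and 2 were above the carboplatin-labelled array with both drugs. With columns 1 to 9 included, 33 members had a value, 6 and 5 were higher on the decitabine-labelled and carboplatin-labelled arrays, and 5 were below the decitabine-labelled array with both drugs. With all probes averaged, 0 members were lower on the carboplatin-labelled array. With genes above background alone, 22, 21 and 23 members had medians of -0.201, -0.0888 and -0.187, and 0 were above the carboplatin-labelled array with both drugs. Against the mean control level, added after seeing the data, 2 were. In columns 1 to 9 of the decitabine-labelled array the direction reversed for DDX58 (-0.07 with processed signals, -0.38 with the control level of the other arrays), IFI6 (-0.20 and -0.04) and ISG20 (-0.46 and -0.47, and -0.16 in the authors' table). The causes were not tested. No paired analysis was possible because each treatment has 1 array, and leaving out a replicate or a slide block could not be run either. TRIM22 and the RefSeq probe of BST2 were dim and carry bounds and not levels. OASL and RSAD2 also lay near background, and their fitted changes are given without a bound and are not to be read as levels.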
